A study of Mus musculus with 16 samples.

Results

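The genes described here are 10 genes of the epithelial-mesenchymal transition (EMT), read on a bead array in 16 mouse mammary tumours. They were chosen by name, as every probe whose array annotation carries the symbol of a transcription factor of the program (Snai1, Snai2, Twist1, Twist2, Zeb1, Zeb2) or of a cytoskeletal, matrix or adhesion gene counted among its effectors (Vim, Tgfbi, Lgals1, Cdh2). Of the 10 listed genes, 9 had at least 1 named probe (15 of the 25697 probes on the array) and 7 were detected well enough to be tested among 9903 genes. Snai2 had no named probe and was not analysed here.

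All 16 tumours were MMTV-Neu tumours labelled with the strain FvB, so all of them carried the Neu (rat Erbb2) oncogene driven in mammary epithelium by a mouse mammary tumour virus promoter, and all were below 1.0 cm in diameter. There were 5 primary tumours, 2 secondary tumours that grew after lin- (lineage-negative) cells were transplanted, and 9 secondary tumours that each grew from 1 transplanted tumour-initiating cell (single TIC). The labels give no treatment, age or host genotype. Tumour names begin with N for primary and with WT for secondary tumours, so whatever distinguishes the hosts cannot be told apart from the step from primary to secondary tumour. Total RNA was taken from tumour tissue, with no sorting of cells named in the labels, so the values can mix cancer cells with the connective tissue, vessels and immune cells of the host, and fewer cells of a type cannot be told apart from less RNA per cell.

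In EMT, epithelial cells lose their junctions and gain a migratory, mesenchymal form. Snail, Twist and Zeb proteins bind E-box sequences in DNA, and Snail and Zeb proteins repress epithelial genes such as the E-cadherin gene Cdh1. Fibroblasts, endothelial cells and leukocytes express Vim and Lgals1 without any EMT, and fibroblasts and macrophages can secrete the Tgfbi protein. In a whole tumour these transcripts therefore have more than 1 possible cell of origin.

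Promoter windows of 6 of the 10 listed genes were read from RefSeq (GRCm38.p6), each covering the 250 bases before the annotated transcription start. No window was read for Lgals1, Zeb1, Cdh2 or Snai2. Windows are shown for Vim and Tgfbi, the only effectors for which one was read, and for the factor gene Snai1. The Snai1 window was the only one of the 9 windows read to hold the E-box CACCTG. Capitals mark matches on either strand to the E-box CACCTG, the AP-1 motif TGANTCA, the TATA box TATAAA and the CCAAT box CCAAT. The Vim window lies on the plus strand at chr2:13574061-13574310, that of Tgfbi on the plus strand at chr13:56609336-56609585, and that of Snai1 on the plus strand at chr2:167537945-167538194.
Vim: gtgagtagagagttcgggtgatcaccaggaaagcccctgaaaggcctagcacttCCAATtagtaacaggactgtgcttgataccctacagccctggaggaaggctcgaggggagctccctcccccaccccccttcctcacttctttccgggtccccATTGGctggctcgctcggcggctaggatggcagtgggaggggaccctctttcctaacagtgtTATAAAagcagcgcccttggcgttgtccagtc
Tgfbi: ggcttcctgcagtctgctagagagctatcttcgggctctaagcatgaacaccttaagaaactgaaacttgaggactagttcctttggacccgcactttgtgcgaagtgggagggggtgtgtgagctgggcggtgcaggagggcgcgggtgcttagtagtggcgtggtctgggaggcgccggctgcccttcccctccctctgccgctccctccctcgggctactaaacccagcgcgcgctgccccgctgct
Snai1: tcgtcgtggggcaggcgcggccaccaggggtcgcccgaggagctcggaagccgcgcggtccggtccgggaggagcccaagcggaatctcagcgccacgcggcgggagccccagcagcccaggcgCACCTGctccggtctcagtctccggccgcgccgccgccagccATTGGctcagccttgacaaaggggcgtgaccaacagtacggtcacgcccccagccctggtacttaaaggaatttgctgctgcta
The Snai1 window held 1 E-box, which began 126 bases before the start, and 1 CCAAT box on the opposite strand, 84 bases before the start. The Vim window held 1 TATA box, 32 bases before the start, and 2 CCAAT boxes. None of the 4 motifs was in the Tgfbi window. Among 32851 RefSeq promoter windows of this length, 17.2% held the E-box, 6.75% the AP-1 motif, 12.4% the TATA box and 33.8% the CCAAT box. These matches are letters in a sequence and were not measured as binding sites in these tumours.

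Between 48.7% and 51.2% of probes were detected on each array, and mean raw intensity was 961 ± 52.4 (SD, n = 9) in single TIC and 882 ± 57.1 (n = 5) in primary tumours. Values below are log2 normalized intensities, and a difference of 1 on that scale is a 2-fold difference. Primary 2 and primary 5 had the lowest stromal signal of the 16 tumours. The mean of 20 fibroblast and matrix genes was 5.67 and 6.38 in these tumours against 6.45, close to them, in primary 4 and 7.86 and 8.68 in primary 3 and 1, and the mean of 13 endothelial genes was 5.39 and 6.60 against 7.62 to 8.04. The mean of 11 macrophage genes was the highest among primary tumours in primary 2 (10.33) and the lowest in primary 5 (8.80). Of 14 luminal epithelial genes with a probe, 10 were detected well enough to be tested. The mean of these 10 was high in every group, at 11.30 ± 0.12 in primary, 11.25 ± 0.07 (n = 2) in lin- and 11.19 ± 0.20 in single TIC tumours. Single genes could be lower, as was Esr1 (mean 7.39 in primary and 6.96 in single TIC tumours). The p-values below measure the spread between these tumours, since the labels do not say which of them shared a donor.

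Between single TIC and primary tumours 2 of the 7 tested genes rose, both effectors, and none of the 4 tested factors passed the test. Lgals1 and Tgfbi rose, and Vim narrowly missed the threshold. The 3 effectors had a median log2 change of 0.95 and the 4 factors one of 0.31, against -0.02 over all 9903 genes. Over all genes 620 were called in either direction (6.26%) and 211 rose (2.13%), at an adjusted p under 0.05 from limma. An unadjusted p under 0.05 from limma was found for 2507 of the 9903 genes, and 46.5% of genes had a higher mean in single TIC tumours. Among the 4 factors Snai1, Zeb1 and Zeb2 had a higher mean in single TIC tumours. Twist1, mostly at background, gave no meaningful direction, though it is part of the median. The factors were dimmer, with primary means of 5.50 to 7.17 against 8.51 to 10.35 for the effectors. Changes of dim genes are understated here, which limits the comparison of 0.31 with 0.95.

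**Figure D1:**
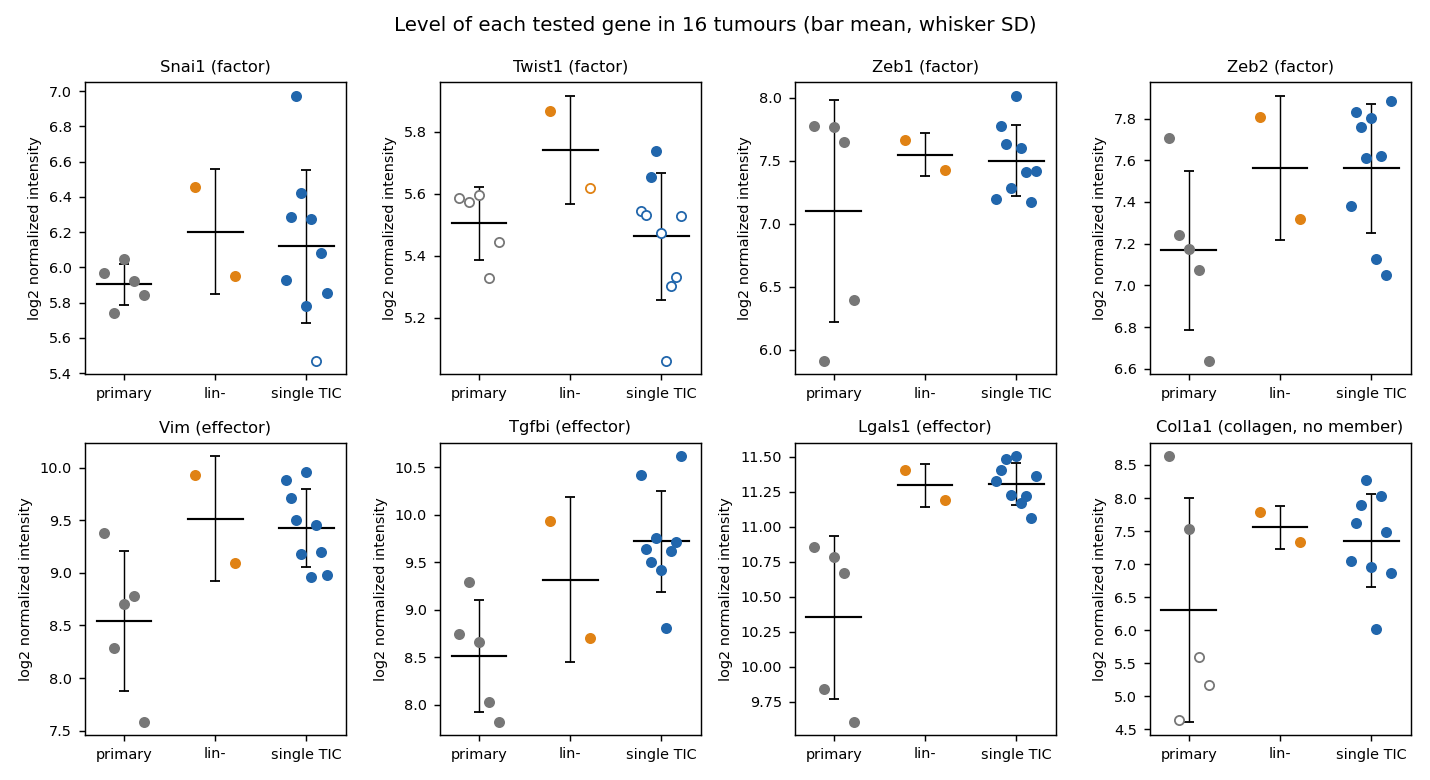
Log2 normalized intensity of each tested gene, and of the collagen gene Col1a1, in every tumour by group, with the mean as a bar and the SD as a whisker. Open points are tumours in which the probe was not detected. All 9 single TIC and both lin- tumours lie above every primary tumour for Lgals1, while the groups overlap for every other gene shown except Twist1 between lin- and primary tumours, where most points were not detected.

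Snai1 encodes the zinc-finger repressor Snail. Its level was 5.97, 5.74, 6.05, 5.92 and 5.84 in primary 1 to 5, 6.46 and 5.95 in lin- 1 and 2, and between 5.47 and 6.97 in single TIC tumours (median 6.08). The highest value was in single TIC 3 and the lowest in single TIC 7, which was the only tumour without detection, and the groups overlapped. The log2 difference between single TIC and primary tumours was 0.22 (SE 0.19, adjusted p = 0.510), and 0.11 without single TIC 3. A second Snai1 probe was detected on 0 of 16 arrays.

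Twist1 encodes a basic helix-loop-helix factor and was close to background. It was detected in 0 of 5 primary, 1 of 2 lin- and 2 of 9 single TIC tumours, at 5.33 to 5.60 in primary tumours, 5.62 and 5.86 in lin- tumours and 5.06 to 5.74 in single TIC tumours (median 5.53). The detected tumours were lin- 1, single TIC 3 and single TIC 4, and single TIC and primary tumours overlapped (adjusted p = 0.842). With no primary tumour above background, no fold is given. The single Twist2 probe was detected on 0 of 16 arrays, at raw intensities of 106 to 136.

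Zeb1 encodes a zinc-finger homeobox repressor of epithelial genes. Its level was 7.78, 7.77 and 7.65 in primary 1, 3 and 4 and only 5.91 and 6.40 in primary 2 and 5, and it was 7.67 and 7.43 in the lin- tumours. Single TIC tumours lay between 7.17 and 8.02 (median 7.42). The 3 higher primary tumours were thus within the single TIC range and the other 2 below every secondary tumour. The log2 difference of single TIC from primary tumours was 0.40 (SE 0.28, adjusted p = 0.386). It was 0.10 without primary 2 and 0.22 without primary 5, and without both it was -0.23 (SE 0.16, adjusted p = 0.423).

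Zeb2 encodes the related protein Sip1. It was at 7.71, 7.24, 7.18, 7.08 and 6.64 in primary 1 to 5, at 7.81 and 7.32 in lin- tumours and between 7.05 and 7.89 in single TIC tumours (median 7.62). Primary 1 to 4 lay within the range of the secondary tumours and primary 5 was the lowest of all 16, and the groups overlapped. The log2 difference of single TIC from primary tumours was 0.39 (SE 0.18, adjusted p = 0.180), and 0.26 without primary 5. A second Zeb2 probe was detected on 0 of 16 arrays.

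Lgals1 encodes galectin-1, a secreted lectin that binds beta-galactosides. Its level was 10.86, 9.84, 10.78, 10.67 and 9.61 in primary 1 to 5, 11.41 and 11.19 in lin- 1 and 2, and 11.06 to 11.50 in single TIC tumours (median 11.33). Every single TIC tumour was above the highest primary tumour, as were both lin- tumours. Such a separation of single TIC from primary tumours was found for 82 of 9903 genes (0.828%), and was not counted for the lin- tumours. The log2 rise was 0.95 (SE 0.18, adjusted p = 0.00981, 1.94-fold, mean 11.31 ± 0.15 against 10.35 ± 0.58). Primary tumours varied more than single TIC tumours, because primary 2 and 5 were low. Without them Lgals1 was still called, with a log2 rise of 0.54 (SE 0.11, adjusted p = 0.0246).

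Tgfbi encodes a secreted matrix protein induced by TGF-beta. Its level was 8.75, 9.29, 8.66, 8.03 and 7.82 in primary 1 to 5, 9.93 and 8.70 in the lin- tumours and 8.81 to 10.62 in single TIC tumours (median 9.64). The highest were single TIC 9 and single TIC 1, at 10.62 and 10.42, and 8 of 9 single TIC tumours were above the highest primary tumour, with single TIC 6 the exception. The log2 rise was 1.21 (SE 0.30, adjusted p = 0.0274, 2.32-fold). Without primary 1, 3, 4 or 5 the adjusted p was 0.0504, 0.0585, 0.0539 and 0.0810, and it was 0.0510 without both primary 2 and 5. A dimmer Tgfbi probe was 0.97 higher (SE 0.32), with an adjusted p of 0.0802 over 14520 probes.

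Vim encodes vimentin, an intermediate filament protein of mesenchymal cells and leukocytes. Its level was 9.38, 8.28, 8.70, 8.78 and 7.58 in primary 1 to 5, 9.94 and 9.10 in the lin- tumours and 8.97 to 9.96 in single TIC tumours (median 9.46). Primary 1 lay within the single TIC range, the other 4 primary tumours lay below it, and 5 of 9 single TIC tumours were above all primary tumours. The log2 difference was 0.88 (SE 0.26, adjusted p = 0.0529, 1.84-fold). It was 1.09 without primary 1 (adjusted p = 0.0313) and 0.47 without primary 2 and 5 (SE 0.25, adjusted p = 0.281). All 4 probes of Cdh2, the N-cadherin gene, were detected on 0 of 16 arrays.

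Pooling the 2 lin- and 9 single TIC tumours gave 3 of 7 tested genes called against primary tumours, all of them effectors, beside 758 of 9903 genes (7.65%). The log2 rise of Lgals1 was 0.95 (SE 0.17, adjusted p = 0.00539), with all 11 secondary tumours above the highest primary tumour. That of Tgfbi was 1.14 (SE 0.29, adjusted p = 0.0253), with 9 of 11 above it, and that of Vim was 0.90 (SE 0.24, adjusted p = 0.0331), with 6 of 11 above it. The share of all genes with every secondary tumour above every primary tumour was not counted, and for single TIC tumours alone it was 0.828%. The 4 factors did not pass, with a median log2 difference of 0.31. The Vim call was lost without primary 2, 3 or 5 or single TIC 2 (adjusted p = 0.0598, 0.0627, 0.0975 and 0.0504). The Tgfbi call was lost without primary 3, 4 or 5 (0.0523, 0.0546 and 0.0826). Without both primary 2 and 5 the differences were 0.53 for Lgals1 (adjusted p = 0.0152), 1.17 for Tgfbi (0.0501) and 0.49 for Vim (0.226). With Col1a1, the fibroblast, the macrophage or the endothelial mean in the fit, Vim was 0.61, 0.59, 0.71 and 0.56 higher and did not pass (adjusted p = 0.115, 0.199, 0.107 and 0.216), nor did it with array weights (0.0523). Tgfbi did not pass with the first 3 of these covariates (0.0582, 0.0881 and 0.0855), and passed with the endothelial mean (0.0284). With mean raw intensity of the array as the covariate, Lgals1, Vim and Tgfbi all failed to pass (adjusted p = 0.0661, 0.106 and 0.114).

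None of the 7 genes passed in the comparison of lin- with primary tumours. The test called 0 of 9903 genes there (0%), with 975 genes at an unadjusted p under 0.05. Lgals1 was 0.94 higher than in primary tumours (SE 0.28, adjusted p = 0.323) and Vim was 0.97 higher (SE 0.39, adjusted p = 0.437). For Tgfbi the difference was 0.81 (SE 0.45, adjusted p = 0.577), with lin- 1 above every primary tumour and lin- 2 within the primary range. Without lin- 1 the Vim difference was 0.55 and that of Tgfbi 0.19, and without lin- 2 that of Tgfbi was 1.43. Zeb1 was 0.45 and Zeb2 0.40 higher, neither of them called. Zeb1 was 0.15 higher without primary 2 and 0.27 without primary 5, and Zeb2 was 0.26 higher without primary 5, 0.15 without lin- 1 and 0.64 without lin- 2. Between single TIC and lin- tumours the test again called 0 of 9903 genes (0%, 167 at an unadjusted p under 0.05), and Lgals1 differed by 0.01 (SE 0.26), Vim by -0.09 (SE 0.36) and Tgfbi by 0.40 (SE 0.42).

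**Figure D2:**
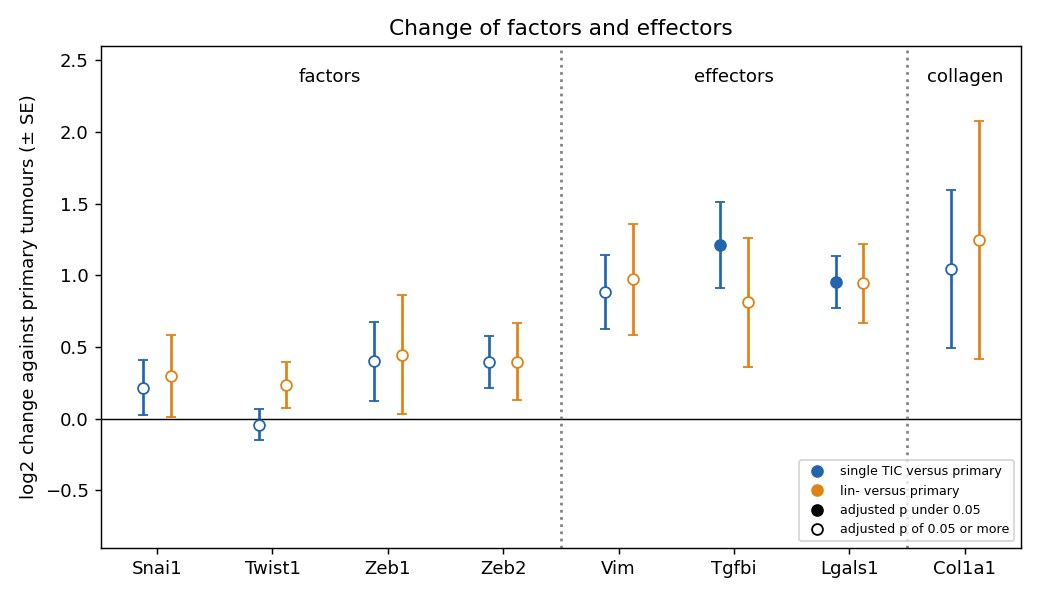
Log2 change against primary tumours, with its SE, for single TIC and lin- tumours. Only Lgals1 and Tgfbi in single TIC tumours are filled, meaning an adjusted p under 0.05, and the 4 factors lie nearer to 0 than the 3 effectors in single TIC tumours.

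The stromal gene Col1a1, which encodes a chain of type I collagen made by fibroblasts, had a wide spread in primary tumours. It was at 8.63, 4.64, 7.52, 5.60 and 5.17 in primary 1 to 5, was detected in primary 1 and 3 only, and was at 6.01 to 8.27 in single TIC tumours (median 7.49). Primary 1 had the highest value of all 16 tumours, and the log2 difference between the groups was 1.04 (SE 0.55, adjusted p = 0.250). Leaving out primary 1 gave 1.62 (adjusted p = 0.0689), leaving out primary 2 gave 0.63 (0.491), and leaving out both primary 2 and 5 gave 0.10 (0.934). Across the 20 fibroblast and matrix genes, 18 had a higher mean in single TIC tumours with a median difference of 1.38, and 0 passed the test (12 at an unadjusted p under 0.05). Dcn, the decorin gene, was 2.80 higher (adjusted p = 0.141), and Bgn, the biglycan gene, was 2.15 higher (adjusted p = 0.0947), while the cross-linking enzyme gene Loxl1 was 2.004 and Serpinf1, the gene of a secreted serpin, 1.93 higher (0.112 for both). The mean of these 20 genes was 5.67 to 8.68 in primary and 6.71 to 8.97 in single TIC tumours, so the groups overlapped. Of 13 endothelial genes 12 were higher and 1 passed, Ramp2, a receptor subunit, which rose by 1.33 (adjusted p = 0.0233). The vascular genes Egfl7, Emcn and Sox18 were 1.62, 1.497 and 1.03 higher (adjusted p = 0.0972, 0.120 and 0.122), and the mean of the 13 was 5.39 to 8.04 in primary and 7.51 to 8.28 in single TIC tumours. Of 11 macrophage genes 10 were higher, with a median difference of 0.53, and 0 passed (4 at an unadjusted p under 0.05). Beside these counts, 2507 of all 9903 genes were at an unadjusted p under 0.05 and 46.5% were higher. The lysozyme gene Lyz2 was 1.03 higher (adjusted p = 0.0774), Laptm5 0.82 (0.0787), Aif1 0.66 (0.130) and the complement gene C1qa 0.65 (0.0767), with a mean of the 11 of 8.80 to 10.33 in primary and 9.59 to 10.70 in single TIC tumours.

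Whether the effectors followed Col1a1 was asked first within the 9 single TIC tumours, the only group large enough. There Lgals1 had Pearson's r = 0.04 with Col1a1 (exact permutation p = 0.920, adjusted 0.975) and Spearman's rho = -0.02 (exact permutation p = 0.982). Vim had r = 0.17 (exact permutation p = 0.656, adjusted 0.883) and rho = 0.17 (p = 0.678), and Tgfbi had r = 0.17 (exact permutation p = 0.659, adjusted 0.883) and rho = 0.13 (p = 0.744). Without single TIC 6 and 4, the tumours farthest from the Col1a1 median, r was -0.22, -0.07 and -0.60. Single TIC 6 had the lowest Col1a1 of its group (6.01) and Lgals1 at 11.17, above every primary tumour. The 4 factors had r between -0.23 (Zeb1) and 0.63 (Twist1), with the smallest adjusted p at 0.498.

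Those 7 relations belong to a family of 35, in which the 7 genes were set against Col1a1 and against the means of the fibroblast, endothelial, macrophage and luminal genes. Within single TIC tumours 0 of the 35 had an adjusted p under 0.05 by r or by rho (3 by r and 1 by rho at an unadjusted p under 0.05). Tgfbi had r = -0.70 with the endothelial mean (exact permutation p = 0.0334, adjusted 0.498, and rho = -0.60, p = 0.0968), which became r = 0.10 without single TIC 9 and 1. Twist1 had r = -0.71 with the luminal mean (exact permutation p = 0.0375, adjusted 0.498, and rho = -0.85, p = 0.00607, adjusted 0.213), with r = -0.69 without single TIC 4 and 8, but was detected in only 2 of these 9 tumours. Zeb2 had r = 0.68 with the fibroblast mean (exact permutation p = 0.0435, adjusted 0.498, and rho = 0.48, p = 0.194), with r = 0.40 without single TIC 6 and 1. With 9 tumours a moderate relation could be missed.

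Over all 16 tumours the relation with Col1a1 was positive for Lgals1 (r = 0.71, permutation p = 0.00395, adjusted 0.0197) and Vim (r = 0.68, permutation p = 0.00335, adjusted 0.0195). Spearman's rho was 0.40 (permutation p = 0.122) for Lgals1 and 0.54 (p = 0.0315, adjusted 0.128) for Vim. It rested on primary 2 and 5, without which r was 0.19 for Lgals1 and 0.34 for Vim. For Tgfbi r was 0.41 (permutation p = 0.116, adjusted 0.185) and rho 0.31 (p = 0.235). Of the factors, Zeb1 (r = 0.65, permutation p = 0.00842) and Zeb2 (r = 0.63, permutation p = 0.00863) also passed with Col1a1 (adjusted 0.0275 for both). Their rho was 0.37 (p = 0.162) and 0.46 (p = 0.0781), and without primary 2 and 5 their r was -0.06 and 0.50. Snai1 (r = 0.35, adjusted 0.276) and Twist1 (r = 0.39, adjusted 0.200) did not pass. Among 9902 genes 1.73% had an r with Col1a1 at least as high as that of Lgals1 over the 16 tumours, and 46.2% did within single TIC tumours. After each group's mean was subtracted, r over 16 tumours was 0.66 for Lgals1 (permutation p = 0.114), 0.57 for Vim (p = 0.0702) and 0.16 for Tgfbi (p = 0.582), with 0 of the 35 relations passing the adjustment.

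**Figure D3:**
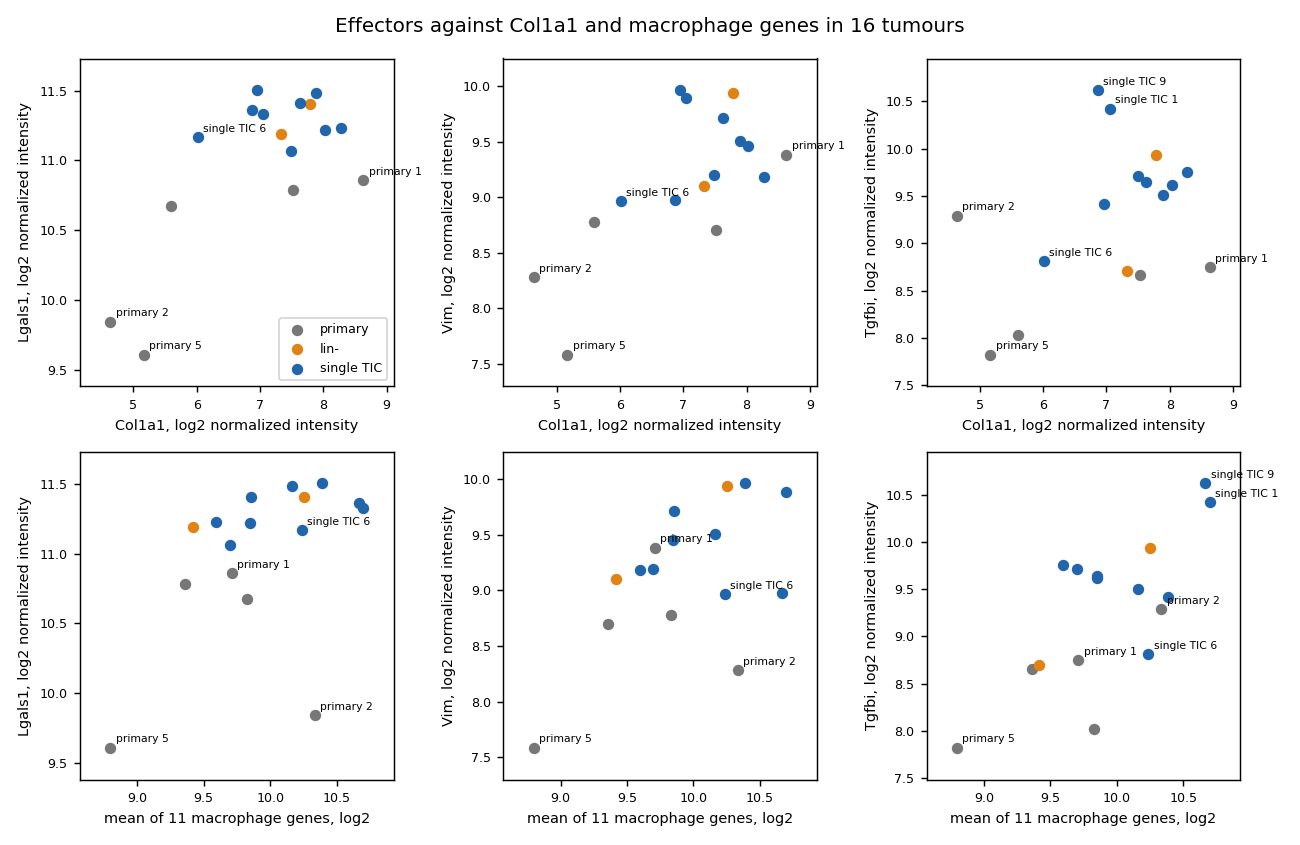
Log2 normalized intensity of Lgals1, Vim and Tgfbi in each tumour against Col1a1 (upper row) and against the mean of 11 macrophage genes (lower row). Primary 1 has the highest Col1a1 of all tumours with Lgals1 below every single TIC tumour, and primary 2 and 5 form the low end for Lgals1 and Vim. Single TIC 1 and 9 have the highest Tgfbi values and macrophage means. Single TIC 6 has the lowest Tgfbi of its group (8.81) at a macrophage mean of 10.24.

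Of the 35 relations over 16 tumours, 12 passed the adjustment by r and 0 by rho (14 and 10 at an unadjusted p under 0.05). Zeb2 went with the fibroblast mean (r = 0.74, permutation p = 0.00108, adjusted 0.0130, and rho = 0.69, p = 0.00421, adjusted 0.101), with r = 0.73 without primary 2 and 5. Tgfbi went with the macrophage mean over 16 tumours (r = 0.72, permutation p = 0.00149, adjusted 0.0130, and rho = 0.60, p = 0.0153), with r = 0.52 without primary 5 and single TIC 1. Within single TIC tumours this r was 0.42 (exact permutation p = 0.265, adjusted 0.883, rho = 0.08). Single TIC 1 and 9 had the highest macrophage means, 10.70 and 10.67, as well as the highest Tgfbi. Zeb1 went with the endothelial mean (r = 0.89, permutation p = 0.000680, adjusted 0.0130, rho = 0.48, p = 0.0596), and this fell to r = 0.28 without primary 2 and 5. Lgals1 also went with the endothelial mean (r = 0.83, permutation p = 0.00267, adjusted 0.0187, rho = 0.62, p = 0.0124), falling to r = 0.33 without the same tumours. With the mean of the 20 fibroblast and matrix genes Lgals1 had r = 0.75 over 16 tumours (permutation p = 0.00122, adjusted 0.0130, and rho = 0.64, p = 0.00936, adjusted 0.101), and r = 0.46 without primary 2 and 5. Vim had r = 0.66 with that mean (permutation p = 0.00478, adjusted 0.0209, and rho = 0.59, p = 0.0173) and r = 0.37 without them, and Tgfbi had r = 0.47 (permutation p = 0.0657, adjusted 0.128, and rho = 0.49, p = 0.0586). Within the 9 single TIC tumours r with the fibroblast mean was 0.30 for Lgals1, 0.07 for Vim and 0.24 for Tgfbi, with rho of 0.27, 0.02 and 0.10 (exact permutation p for r = 0.429, 0.856 and 0.545, adjusted 0.883, 0.967 and 0.883).

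The group comparison was then repeated with each stromal measure as a covariate in the fit. The Lgals1 difference between single TIC and primary tumours was 0.74 with Col1a1 in the fit (adjusted p = 0.0174), 0.68 with the fibroblast mean (0.0398), 0.60 with the endothelial mean (0.0442) and 0.85 with the macrophage mean (0.0403). Tgfbi was higher by 1.12 with Col1a1 (adjusted p = 0.0571), by 1.09 with the fibroblast mean (0.0830), by 1.49 with the endothelial mean (0.0332) and by 0.82 with the macrophage mean (0.103). Vim was higher by 0.54 to 0.66 and passed with none of these 4 covariates. The Zeb1 difference of 0.40 was 0.10 with Col1a1, 0.01 with the fibroblast mean and -0.24 with the endothelial mean. With mean raw intensity of the array as the covariate the Lgals1 difference was 0.92 and that of Tgfbi 1.31, but neither passed (adjusted p = 0.0958 and 0.119). The part of cell composition in these differences was not tested.

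**Figure D4:**
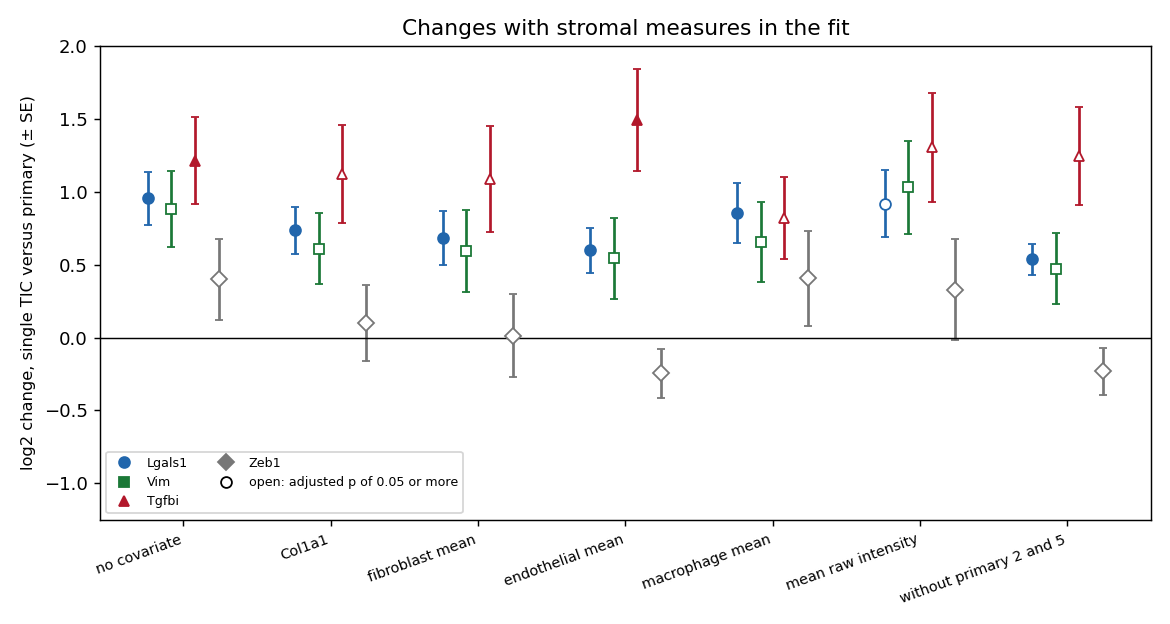
Log2 change of Lgals1, Vim, Tgfbi and Zeb1 between single TIC and primary tumours, with its SE, without a covariate, with each of 5 covariates in the fit, and without primary 2 and 5. Lgals1 stays between 0.54 and 0.95 and is open, meaning an adjusted p of 0.05 or more, only with mean raw intensity, while Zeb1 lies on both sides of 0.

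The members were also set against each other, as a description. Over 16 tumours r was 0.89 between Lgals1 and Vim, 0.63 between Lgals1 and Tgfbi and 0.63 between Vim and Tgfbi, and within single TIC tumours it was 0.61, 0.15 and 0.08. Among the factors r ranged from 0.01 (Twist1 and Zeb1) to 0.54 (Zeb1 and Zeb2) over 16 tumours. Between the classes, Lgals1 had r = 0.78 with Zeb1 and 0.73 with Zeb2 over 16 tumours, and 0.69 and 0.81 within single TIC tumours. Vim had r = 0.68 with Zeb1 and 0.76 with Zeb2 over 16 tumours, and 0.41 and 0.33 within single TIC tumours. For Tgfbi these values were 0.11 and 0.67, and -0.48 and 0.32. Snai1 had r of 0.14 to 0.38 with the effectors over 16 tumours and -0.28 to 0.21 within single TIC tumours. For Twist1 these ranges were 0.13 to 0.30 and 0.31 to 0.54. All genes were read on the same arrays, and the r values over 16 tumours include the low values of primary 2 and 5.

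The genes whose pattern was nearest to each member were found by Pearson's r over 16 tumours among 9902 genes. Nearest to Lgals1 were Ly6c1 (r = 0.96), Rab8a (0.94) and Snrpd3 (0.93), and nearest to Vim were Rab8a (0.89), Lgals1 (0.89) and Gpr176 (0.88). Nearest to Tgfbi were Ccl2 (0.87), Alox5ap (0.87) and Ncf4 (0.86). Zeb1 was nearest to Rftn2 (0.93), Rgs5 (0.93) and Sema7a (0.93), and Zeb2 to Cdkn2b (0.92), Pltp (0.86) and Gpx7 (0.85). The nearest genes were less alike for the dim factors, with Fancc (0.78), Siah1b (0.75) and Pdia4 (0.73) for Snai1 and Yod1 (0.72), Atxn2 (0.72) and Brd2 (0.71) for Twist1. The single TIC tumours are among the 16 used to choose these genes, so r within them is no separate support. Within them r with Lgals1 was 0.72 for Ly6c1, 0.53 for Rab8a and 0.56 for Snrpd3. With Tgfbi it was 0.91 for Ccl2, 0.65 for Alox5ap and 0.69 for Ncf4. Ccl2 was detected in 5 of 9 single TIC and 0 of 5 primary tumours.

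Genes around the program were compared between single TIC and primary tumours, where 6.26% of all tested genes were called. An unadjusted p under 0.05 was found there for 2507 of 9903 genes. Of 13 other tested EMT regulators 0 passed (4 at an unadjusted p under 0.05), with a median difference of 0.21. The inhibitors of helix-loop-helix factors Id3 and Id1 were each 0.63 higher (adjusted p = 0.0573 and 0.0958), the factor gene Sox4 was 0.43 higher (0.0784) and Foxq1, a forkhead factor, differed by -0.56 (0.517). Of 24 other mesenchymal and invasion genes 0 rose and 1 fell, with a median difference of 0.14. The gene that fell was Itgb6, an epithelial integrin subunit that activates latent TGF-beta, by 0.79 (SE 0.18, adjusted p = 0.0211). Lox, a collagen cross-linking enzyme, was 1.69 higher (adjusted p = 0.176), the secreted glycoprotein gene Fstl1 1.58 higher (0.112), the protease gene Mmp3 1.04 higher (0.185) and Mmp2, a gelatinase gene, 0.98 higher (0.103).

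Cdh1, the E-cadherin gene and a known target of Snail and Zeb proteins, was at 11.64 ± 0.17 in single TIC and 11.78 ± 0.27 in primary tumours, a difference of -0.14 (SE 0.12, adjusted p = 0.483), and was picked after its value was seen. Of 27 tested epithelial state genes 2 rose, 3 fell and 22 did not pass, with a median difference of -0.13, beside 6.26% called and a median of -0.02 over all genes. In direction, 21 of the 27 were lower and 6 higher in single TIC tumours, while 46.5% of all genes were higher. The mean of the 27 was 9.90 ± 0.05 (SD, 9.83 to 9.96) in primary and 9.78 ± 0.10 (9.57 to 9.90) in single TIC tumours. The tight junction gene Cldn7 rose by 0.54 (SE 0.12, adjusted p = 0.0179), and Ddr1, a collagen receptor kinase of epithelial cells, rose by 0.35 (SE 0.09, adjusted p = 0.0329). Grhl1, a grainyhead-like factor, fell by 0.52 (SE 0.11, adjusted p = 0.0147), the membrane protease gene St14 fell by 0.51 (SE 0.13, adjusted p = 0.0271), and Esrp1, an epithelial splicing regulator, fell by 0.28 (SE 0.08, adjusted p = 0.0437). Elf3, an epithelial factor, was not called, at a difference of -0.47 (adjusted p = 0.212).

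The Esrp1 call was lost in 13 of 16 repeats that left out 1 tumour, that of Ddr1 in 6, those of Itgb6, Smad4 and St14 in 3 each and that of Cldn7 in 1, while the Grhl1 call was kept in all 16. Averaging all kept probes of a gene gave Grhl1 a difference of -0.23 (adjusted p = 0.368) and Ddr1 one of 0.18 (0.243). Without primary 2 and 5, Cldn7 (adjusted p = 0.0281) and Esrp1 (0.0304) were still called, and the calls of Grhl1, St14 and Ddr1 were lost. The share of all genes called in that fit is not given here.

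In the TGF-beta pathway, an inducer of EMT, 0 of 17 tested genes rose, 1 fell and the median difference was 0.12. Smad4, the shared signal transducer, fell by 0.27 (SE 0.07, adjusted p = 0.0279). Eng, an endothelial coreceptor, was 0.92 higher (adjusted p = 0.124), the inhibitor gene Smad6 was 0.52 higher (0.136), the ligand gene Tgfb3 differed by -0.51 (0.113) and the coreceptor gene Tgfbr3 by -0.38 (0.140).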

How the data were processed

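Each of 16 tumours gave total RNA for 1 Illumina mouse bead array. Per the file headers, the deposited table holds a non-normalized linear intensity and a detection p-value for each of 25697 probes. The authors' processed intensity table is quantile-normalized, as judged from its values, and the submitters' processing notes name BeadStudio, whose version is not given in the sources used here. Groups came from the sample labels, and replicate numbers follow the order of deposition.

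Intensities were corrected with limma 3.58.1 in R 4.3.3 (nec, offset 16, negative controls inferred from detection p-values), quantile-normalized and log2-transformed, so changes of dim genes are understated. Probes with a detection p under 0.05 on at least 2 arrays were kept (14520). Probe names came from the supplied array annotation, in which 23978 probes carry 1 symbol, 0 carry several and 1719 carry none. Of 23962 symbols looked up in RefSeq by Entrez identifier, 0 changed. A gene is represented by its brightest kept probe. Groups were compared across all genes in 1 limma fit (lmFit, eBayes, two-sided), all secondary against primary tumours in another, with Benjamini-Hochberg adjustment over 9903 genes. Adjusted p-values given for genes come from limma. The fit was tested on simulated data. Correlations used exact permutation of pairings for 9 tumours and 100000 permutations for 16 (within groups for deviations from group means), two-sided, adjusted over 35 relations.

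Named genes are the 10 members, Col1a1, up to 4 genes of each list with the largest change plus those called, and the 3 genes nearest to each member. Cdh1 falls outside this rule and was chosen after its values were seen. Of the lists of further cell types only counts, levels and single genes are given. Members and lists were chosen with earlier results of these data known. Alternatives were other background corrections, offsets, filters, probe rules, variance models and covariates, the authors' table, and leaving out tumours. The macrophage and endothelial covariates and the fits without primary 2 and 5 were added after the data were seen. Array number limits the precision.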

Additional observations from a re-analysis of the deposited data

How the results depend on the processing

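Lgals1, in single TIC against primary tumours, kept its call in 14 of 15 alternatives and in all 16 repeats that left out 1 tumour (log2 0.77 to 1.08). Tgfbi kept it in 10 of 15 and in 12 of 16 (1.04 to 1.41). Vim passed in 2 of 15 (offset 50, adjusted p = 0.0485, and a stricter detection filter, 0.0474) and in 3 of 16 (0.64 to 1.09; without primary 1, single TIC 6 or single TIC 9). Members called numbered 1 to 3 when 1 tumour was left out, both in this comparison and for all secondary tumours, and 0 in the other 2 comparisons. Genes called ranged over 261 to 785 for single TIC, 380 to 945 for all secondary and 0 to 7 for lin- against primary tumours, and 0 to 1 for single TIC against lin-.

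With mean raw intensity as a covariate, 18 genes and 0 members were called for single TIC and 32 genes and 0 members for all secondary against primary tumours. With Col1a1, the fibroblast mean or the macrophage mean as a covariate, Lgals1 was the only member called in each of these 2 comparisons. The same was so without primary 2 and 5. Apart from the macrophage fit, no share of all genes is given beside these calls, so they describe Lgals1 alone. The macrophage covariate left 328 genes called for single TIC and 450 for all secondary tumours, and the endothelial covariate left 497 for the latter. For lin- against primary tumours 1 gene was called without background correction, with offset 50, with the authors' table, without a filter, with the strict filter, with trend and robust variances, with the compared groups only and with the Col1a1 covariate, 5 without primary 2 and 5, and 10 with array weights. Array weights gave 1 gene for single TIC against lin-. The cause of these shifts was not tested.

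Zeb1 changed sign in single TIC tumours with the endothelial covariate (-0.24) and without primary 2 and 5 (-0.23), and in lin- tumours with the fibroblast covariate (-0.068), the endothelial covariate (-0.21) and without primary 2 and 5 (-0.19). The Twist1 difference (-0.04), between groups mostly or wholly at background and thus without a meaningful sign, was 0.10 with the raw intensity covariate, and -0.087 to 0.0072 when 1 tumour was left out. The Col1a1 difference was -0.26 with the fibroblast mean, which contains it, and -0.0030 with the endothelial mean. Within single TIC tumours no member was related to Col1a1 in any of the 9 repeats (0 in each). Over all 16 tumours 4 were by r (Lgals1, Vim, Zeb1 and Zeb2). The r of Lgals1 with Col1a1 was -0.0059 without background correction and -0.0025 in the authors' table, and leaving out 1 tumour gave -0.33 to 0.17 for Lgals1, -0.25 to 0.35 for Vim and -0.53 to 0.45 for Tgfbi. Chip was not run as a block, since the headers used here name none. No paired analysis was possible because the labels do not say which tumours shared a donor. Dim probes (Snai1, Twist1) limit what can be said of those factors.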

Other observations

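Markers of further cell types were compared between single TIC and primary tumours, and 0 genes of these lists passed the test by limma. Over all 9903 genes, 2507 were at an unadjusted p under 0.05 and 46.5% were higher, beside which the counts below stand. Of 4 adipocyte genes all were higher in single TIC tumours, with a median log2 difference of 0.79 (1 at an unadjusted p under 0.05). The adipokine gene Adipoq was 1.80 higher (adjusted p = 0.248), and the adipocyte mean ranged from 6.16 to 6.78 in primary and from 6.39 to 9.22 in single TIC tumours. Of 10 pericyte and smooth muscle genes 7 were higher, with a median difference of 0.22 (2 at an unadjusted p under 0.05). The actin gene Acta2 was 1.96 higher (adjusted p = 0.126), and Notch3 differed by -0.48 (0.0972). Of 8 basal and myoepithelial genes 4 were higher, with a median difference of 0.05 (3 at an unadjusted p under 0.05). The largest changes were those of Acta2, which is also in this list, and Sparc, 1.55 higher (adjusted p = 0.117). In the other direction, the basal factor gene Trp63 differed by -0.83 (adjusted p = 0.281) and Mylk by -0.63 (0.0943).

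Of 9 T and NK cell genes 8 were higher, with a median difference of 0.33, and of 5 B and plasma cell genes all were, with a median of 0.31 (0 of both lists at an unadjusted p under 0.05). Primary 2, which had low stromal values, had the highest T and NK cell mean of all tumours, at 9.58, followed by single TIC 2 at 9.17. Single TIC 2 also had the highest B and plasma cell mean (7.83) and the highest adipocyte mean (9.22). Of 4 skeletal muscle genes 1 was higher, with a median difference of -0.18 (0 at an unadjusted p under 0.05).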
